A study of Mus musculus with 1617 samples.

Results

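Macrophages of the whole brain of mouse embryos at E16.5 (embryonic day, counted from conception) were divided by their level of Ccl4, a chemokine gene. Cells with Ccl4 at 100 TPM or more (a relative transcript abundance, scaled by transcript length and by each cell's total) are called Ccl4-high here. They were set against Ccl4-negative cells, which had Ccl4 below 1 TPM. Of the E16.5 cells, 37 were Ccl4-high, 40 were Ccl4-negative and 49 lay between, so the comparison covers 77 of the 1617 cells of the series.

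The study profiled single brain macrophages across ages. Cells were sorted as positive for CD45, F4/80 and CD11b and negative for Ly6C, and each was captured on a microfluidic chip, with 1 library per cell. All E16.5 cells share the same label of age and tissue, and the labels give no strain, genotype, treatment, sex, animal or litter for them. Cells of 1 group are therefore not replicates: each group counts as 1 sample, no p-value is given, and the spread is the spread between cells. The same rule was also applied to whole-brain cells of E12.5, of which 21 were Ccl4-high, 87 were Ccl4-negative and 38 lay between.

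Ccl4 and Ccl3 encode secreted chemokines that attract leukocytes and are made by macrophages when signalling through NF-kB, a family of transcription factors of inflammation, is active. The embryonic brain holds microglia, the macrophages of the nervous tissue itself, and border-associated macrophages of the meninges and vessels. Microglia are known by genes such as Sall1, Tmem119 and Sparc, and border-associated macrophages by Mrc1, F13a1 and Pf4.

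Ccl4 lies on chromosome 11 (83662584 to 83664683, GRCm38) and Ccl3 on the same chromosome (83647844 to 83649355). The groups were chosen on Ccl4, so its values are a description. Ccl4 ranged from 124.09 to 30007 TPM in Ccl4-high cells, with a median of 1404 TPM. It was at 0 in 39 of the 40 Ccl4-negative cells and at 0.92 TPM in the other. The cells nearest to the thresholds stood at 124.09 TPM just inside and 98.2 TPM just outside the high group, and at 0.92 TPM just inside and 1.46 TPM just outside the negative group.

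Cells of both groups had similar numbers of genes at 1 TPM or more, with a median of 5345 (2041 to 7068) in Ccl4-high cells and 5016 (380 to 6684) in Ccl4-negative cells. Mitochondrial genes held a median of 6.04% of the TPM in Ccl4-high cells and 6.69% in Ccl4-negative cells. The number of reads behind each cell cannot be recovered from TPM and is unknown. Xist and a Y-linked gene, which are normally expressed in different sexes, were both at 1 TPM or more in 17 of 37 Ccl4-high and 19 of 40 Ccl4-negative cells; no doublet caller was run. A Y-linked gene without Xist was found in 19 of 37 Ccl4-high and 12 of 40 Ccl4-negative cells, and Xist without a Y-linked gene in 1 Ccl4-high and 4 Ccl4-negative cells. The Y-linked genes Ddx3y and Uty were called higher by the rule given next. Ddx3y averaged 80.9 TPM in Ccl4-high cells and 24.6 TPM in Ccl4-negative cells, and Uty 85.1 TPM in Ccl4-high cells and 17.02 TPM in Ccl4-negative cells. The part of sex and of cells with both kinds of gene in the results was not tested.

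A gene was measured where its mean reached 5 TPM in either group. It was called higher or lower where 2 measures, the log2 ratio of mean TPM (1 TPM added) and the difference of mean log2(TPM + 1), were both at least 1.5-fold in the same direction. Of 11540 measured genes, 1931 (16.7%) were called higher in Ccl4-high cells and 893 (7.74%) lower. These shares are the background for every list below. A gene that reached 5 TPM in Ccl4-high cells alone could be called higher but not lower. The reverse held for a gene that reached it in Ccl4-negative cells alone. A call is a statement of size with no error rate, and a gene with a wide spread between cells can pass it by that spread alone. The medians over all measured genes were 0.17 for the ratio and 0.18 for the difference. In simulated data, genes given no change passed the rule in each direction more often than genes were called lower here and less often than genes were called higher. The simulation drew each gene independently, from values of Ccl4-negative cells alone and only for genes measured there. It therefore sets no chance level for the shares above, and nothing is concluded from this comparison.

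Of the genes of the sorted antigens, Ptprc, which encodes CD45, and Itgam, which encodes CD11b, were both called higher. Ptprc ranged from 0.750 to 2649 TPM, with a median of 351 TPM, in Ccl4-high cells, and from 0 to 1469 TPM, with a median of 109.02 TPM, in Ccl4-negative cells, and the groups overlapped. Itgam averaged 241 TPM in Ccl4-high cells and 134.4 TPM in Ccl4-negative cells. It was not called without the cells of 5 or more interferon response genes at 100 TPM, which are described below.

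Among lists with 8 or more measured members, that of homeostatic microglia held the largest share called higher and that of border-associated macrophages the largest share called lower. Homeostatic microglia genes were called higher in 12 of 18 measured members and lower in 0, with median measures of 1.11 and 1.54. Border-associated macrophage genes were called lower in 12 of 13 and higher in 0, with medians of -1.86 and -2.42. Sall1, a transcription factor of microglia on chromosome 8 (89027235 to 89044162), ranged from 0 to 1275 TPM, with a median of 49.1 TPM, in Ccl4-high cells, and from 0 to 812 TPM, with a median of 0.180 TPM, in Ccl4-negative cells. It was at 100 TPM or more in 13 Ccl4-high and 2 Ccl4-negative cells, with a log2 ratio of means of 2.52 and a difference of mean log2 values of 3.69. Low cells were found in both groups, so the ranges overlapped.

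Sparc, which encodes a secreted matrix protein of microglia, ranged from 3.15 to 5566 TPM, with a median of 1487 TPM, in Ccl4-high cells, and from 0 to 5343 TPM, with a median of 8.10 TPM, in Ccl4-negative cells. Most Ccl4-high cells stood among the high values, and 12 Ccl4-negative cells reached 100 TPM as well. Olfml3, a secreted protein of microglia, and Tmem119, a membrane protein of microglia, had measures of 2.06 and 4.23 and of 1.90 and 3.64. P2ry12, the purine receptor that guides microglial processes, was at 100 TPM or more in 28 Ccl4-high and 24 Ccl4-negative cells.

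F13a1, which encodes a chain of coagulation factor XIII (chromosome 13, 36867178 to 37050244), ranged from 0 to 2927 TPM, with a median of 2.17 TPM, in Ccl4-high cells, and from 0 to 6445 TPM, with a median of 1139.9 TPM, in Ccl4-negative cells. Only 4 of the 37 Ccl4-high cells reached 100 TPM, against 24 of the 40 Ccl4-negative cells. Mrc1, the mannose receptor, ranged from 0.210 to 4740.3 TPM, with a median of 4.47 TPM, in Ccl4-high cells, and from 1 to 9107 TPM, with a median of 1838 TPM, in Ccl4-negative cells. Both groups held cells with much and with little Mrc1, and its measures were -2.72 and -4.79. Pf4, platelet factor 4, is both a chemokine and a marker of border-associated macrophages, and it averaged 1044 TPM in Ccl4-high cells and 5900.4 TPM in Ccl4-negative cells. Lyve1, a hyaluronan receptor, was at 100 TPM or more in 4 Ccl4-high and 22 Ccl4-negative cells.

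**Figure D1:**
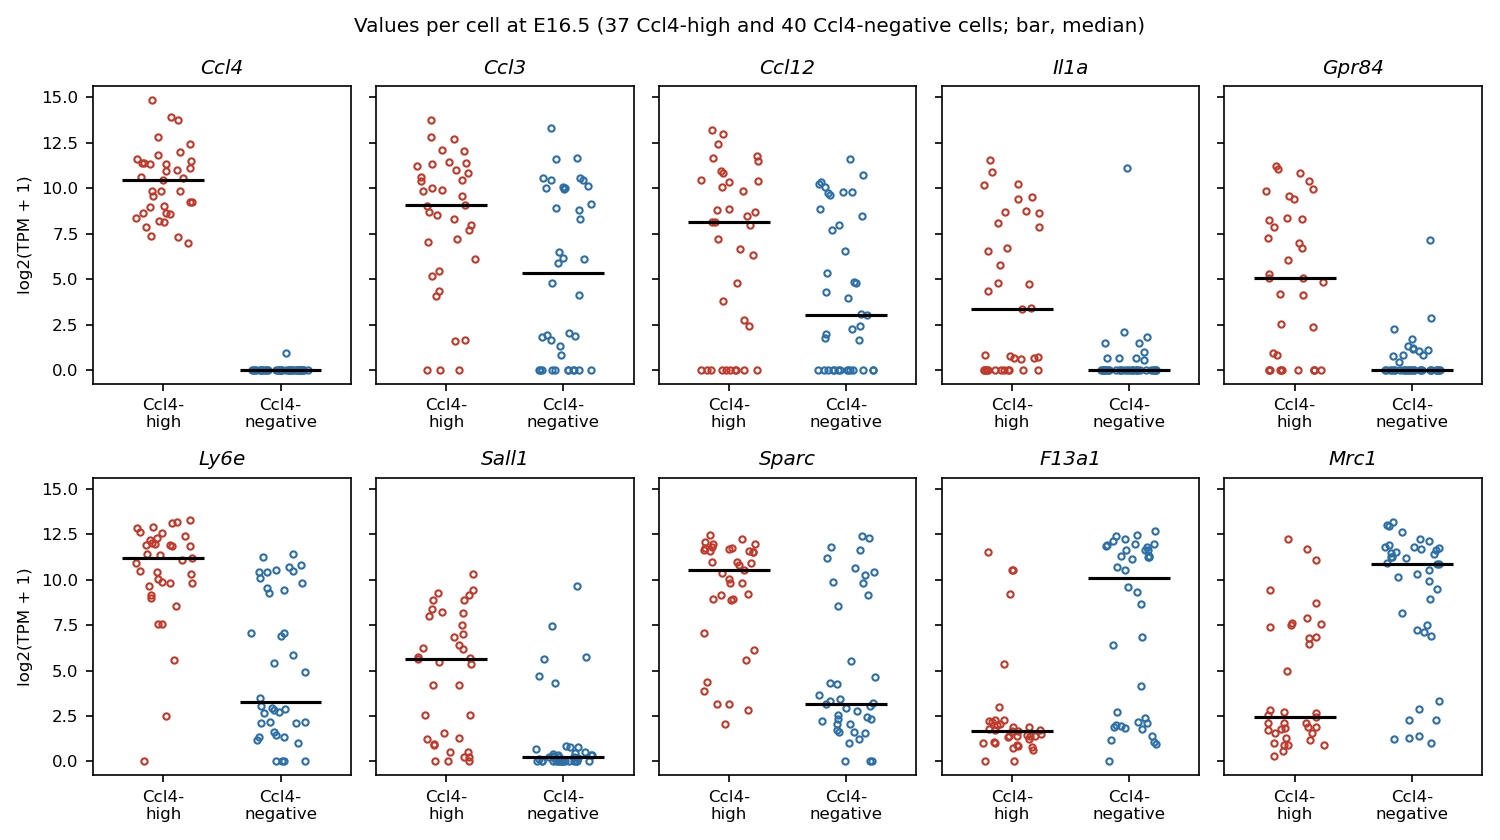
Values per cell, as log2(TPM + 1), of Ccl4 and 9 other genes in 37 Ccl4-high cells (left, red) and 40 Ccl4-negative cells (right, blue), with 1 point per cell and a bar at the median. Ccl4 separates the groups because it chose them. The other 9 genes overlap, with higher medians in Ccl4-high cells for 7 and lower ones for F13a1 and Mrc1.

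The E16.5 cells were then divided by F13a1 and by Sall1 instead. Of the 54 E16.5 cells with F13a1 at 100 TPM or more, 4 were Ccl4-high (7.41%, exact Clopper-Pearson 95% interval 2.06 to 17.9%). Of the 72 cells with less F13a1, 33 were Ccl4-high (45.8%, 34.02 to 57.996%). These intervals cover counting error over cells only. Ccl4-negative cells made up 24 of the 54 and 16 of the 72. Of the 22 cells with Sall1 at 100 TPM or more, 13 were Ccl4-high and 2 were Ccl4-negative. No E16.5 cell had both F13a1 and Sall1 at that level.

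**Figure D2:**
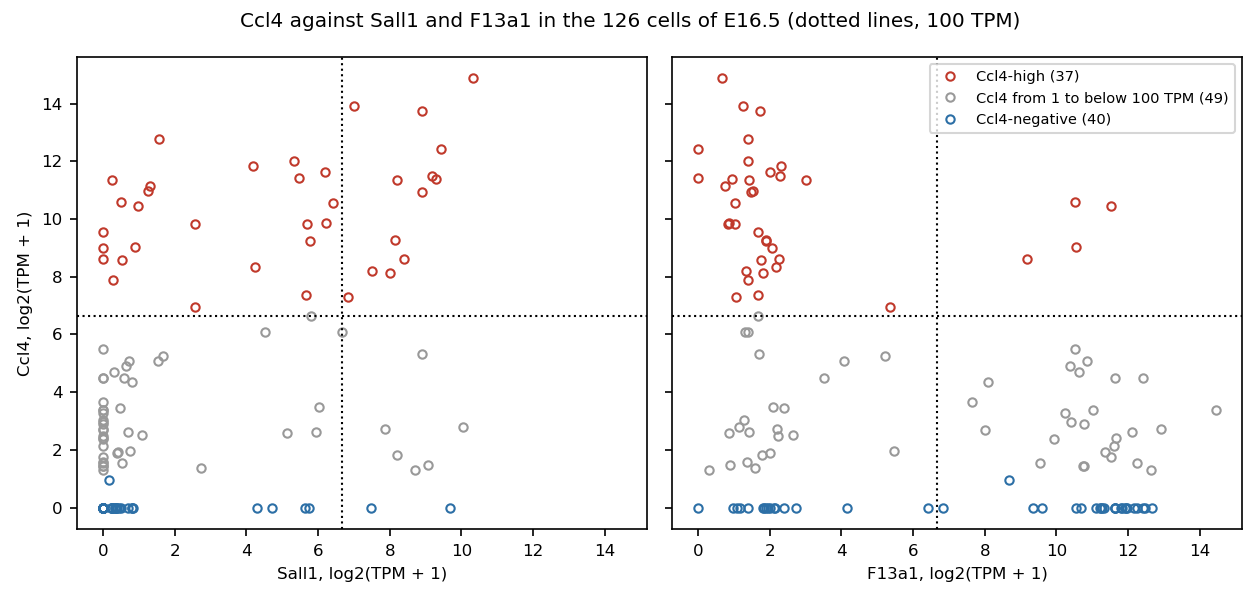
Ccl4 against Sall1 (left) and F13a1 (right) in all E16.5 cells, as log2(TPM + 1), with 1 point per cell and dotted lines at 100 TPM. In the right panel 4 Ccl4-high cells lie beyond the F13a1 line, and 33 lie before it.

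The 10 genes whose values followed Ccl4 most closely over all E16.5 cells, by Spearman rank correlation among 6930 genes, were led by genes of microglia. They were Sall1 (0.47), Ly6e (0.45), Tmem119 (0.43), Cd81 (0.43), Bin2 (0.41), Il1a (0.40), Chd7 (0.40), Sparc (0.39), Cpd (0.39) and Olfml3 (0.39). These values are descriptions over cells that share 1 label, and cells at 0 contribute many ties. Chd7 encodes a chromatin remodeller and Cpd a carboxypeptidase.

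Of the 15 genes with the largest calls above, Gpr84, a receptor for medium-chain fatty acids, ranged from 0 to 2339.5 TPM, with a median of 32.2 TPM, in Ccl4-high cells, and from 0 to 143.5 TPM, with a median of 0 TPM, in Ccl4-negative cells. It reached 100 TPM in 15 Ccl4-high and 1 Ccl4-negative cells. Ly6e, a GPI-anchored protein induced by interferon, ranged from 0 to 9886 TPM, with a median of 2318 TPM, in Ccl4-high cells, and from 0 to 2707 TPM, with a median of 8.79 TPM, in Ccl4-negative cells, and 34 of the Ccl4-high cells were at 100 TPM or more. Its measures were 2.72 and 5.19. Cd81, a tetraspanin, averaged 1614 TPM in Ccl4-high cells and 240.1 TPM in Ccl4-negative cells, and Cd82, another tetraspanin, 190.7 TPM in Ccl4-high cells and 1.82 TPM in Ccl4-negative cells. Both were called higher, but Cd81 was widespread and Cd82 reached 100 TPM in 10 of the Ccl4-high cells.

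Cd72, an inhibitory receptor, had measures of 6.34 and 2.65, and Pilra, a paired immunoglobulin-like receptor, 5.25 and 2.61. Cd72 reached 100 TPM in 7 of the 8 Ccl4-high cells with 5 or more interferon response genes at 100 TPM, described below. It did so in 3 of the other 29, where its median was 0 TPM. Cd52, a small GPI-anchored glycoprotein, was at 100 TPM or more in 21 Ccl4-high and 13 Ccl4-negative cells. Blnk, an adaptor of immune receptor signalling, averaged 136.02 TPM in Ccl4-high cells and 15.7 TPM in Ccl4-negative cells. Rgs1, a regulator of G protein signalling that dampens chemokine receptors, averaged 554 TPM in Ccl4-high cells and 90.2 TPM in Ccl4-negative cells, and Tcirg1, a subunit of the proton pump of lysosomes, 501 TPM in Ccl4-high cells and 94.99 TPM in Ccl4-negative cells. Gfm2, a mitochondrial elongation factor, Asph, an aspartyl hydroxylase, Spint1, a serine protease inhibitor, and Ifitm3, an interferon-induced membrane protein, complete the 15 with Sall1.

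The 10 genes with the largest calls below included the border-associated macrophage genes F13a1, Mrc1 and Ms4a7. Ms4a7 and Ms4a4a, 2 members of a family of membrane proteins, averaged 67.7 TPM in Ccl4-high cells and 726 TPM in Ccl4-negative cells, and 125.8 TPM in Ccl4-high cells and 1039 TPM in Ccl4-negative cells. Lgals1, galectin 1, reached 100 TPM in 5 Ccl4-high and 21 Ccl4-negative cells. Blvrb, biliverdin reductase B, had measures of -2.72 and -2.86, and Ifitm2, an interferon-induced membrane protein, -2.67 and -3.76. Cd200r1, an inhibitory receptor, rested on 1 cell in the high group, which held 98.1% of that group's total. Fcna, a ficolin, and Dse, which makes dermatan sulfate, were the other 2.

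**Figure D3:**
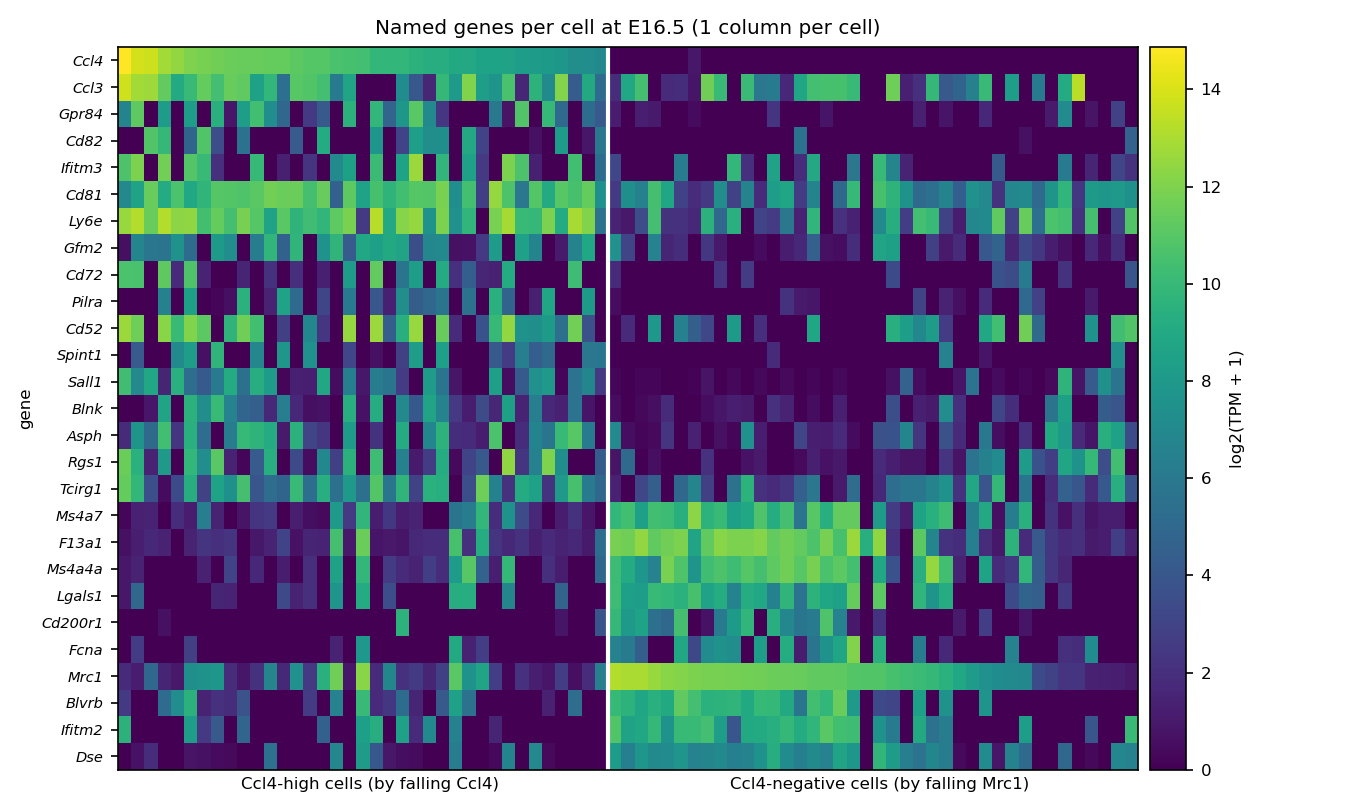
Heat map of log2(TPM + 1) for Ccl4, Ccl3 and the 15 genes with the largest calls above and the 10 with the largest calls below, in 37 Ccl4-high cells (left, by falling Ccl4) and 40 Ccl4-negative cells (right, by falling Mrc1), with 1 column per cell. The 10 genes at the bottom are bright in the Ccl4-negative cells with much Mrc1 and dark in most Ccl4-high cells.

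Among chemokine ligands, 8 of 15 measured members were called higher and 4 lower, beside the 16.7% and 7.74% of all genes. Ccl5, Cxcl9, Cxcl10 and Cxcl11 were measured through Ccl4-high cells alone and could not be called lower. Ppbp was measured through Ccl4-negative cells alone and could not be called higher. Ccl3, whose gene lies close to that of Ccl4, ranged from 0 to 13986 TPM, with a median of 537 TPM, in Ccl4-high cells, and from 0 to 10260.1 TPM, with a median of 42.3 TPM, in Ccl4-negative cells. It was at 100 TPM or more in 27 Ccl4-high and 16 Ccl4-negative cells, so many Ccl4-negative cells held Ccl3. Its measures were 1.17 and 2.98. Ccl12, a monocyte-attracting chemokine of mice, ranged from 0 to 9451 TPM, with a median of 277 TPM, in Ccl4-high cells, and from 0 to 3064 TPM, with a median of 7.20 TPM, in Ccl4-negative cells, and the groups overlapped.

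The other chemokines called higher rested on fewer cells. Ccl5, a chemokine of T cells and macrophages, reached 100 TPM in 4 Ccl4-high and 0 Ccl4-negative cells, and 1 cell held 71.4% of the total of the high group. Cxcl9 and Cxcl10, ligands of Cxcr3 induced by interferon, each reached it in 3 Ccl4-high and 0 Ccl4-negative cells. Cxcl16, a membrane-bound chemokine, did so in 10 Ccl4-high and 3 Ccl4-negative cells, and Ccl6, a chemokine of myeloid cells, in 14 Ccl4-high and 10 Ccl4-negative cells. Cxcl11 was the eighth.

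The 4 chemokines called lower were Pf4, Ppbp, which is a platelet chemokine, Ccl24 and Cxcl2. Ccl24, a ligand of Ccr3, averaged 7.01 TPM in Ccl4-high cells and 120.9 TPM in Ccl4-negative cells, and Cxcl2, which attracts neutrophils, 14.8 TPM in Ccl4-high cells and 25.4 TPM in Ccl4-negative cells. Ccl2, the main ligand of Ccr2, was not called: it averaged 1624 TPM in Ccl4-high cells and 1574 TPM in Ccl4-negative cells and reached 100 TPM in 18 Ccl4-high and 19 Ccl4-negative cells. Ccl7 was not called either, at -0.52 and -1.20. Of the receptors, Ccr1 and Cxcr3 were called lower among 8 measured members. Ccr1 averaged 8.22 TPM in Ccl4-high cells and 169.5 TPM in Ccl4-negative cells.

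Promoter sequences of 3 of the genes called higher are shown as examples, which need not be typical of their lists. They are taken from RefSeq on GRCm38.p6 and run 5′ to 3′ from 250 bases before the start of the gene to 50 after it. Capitals mark matches on either strand to the kB-like motif (the binding motif of NF-kB), TGANTCA (AP-1), TGACGTCA (CRE) and the ISRE-like motif (a core of the interferon-stimulated response element). The Cxcl10 window (chr5:92348840-92349139, minus strand) holds 2 kB-like matches, 1 AP-1 match and 1 ISRE-like match. The Ifitm3 window (chr7:141010695-141010994, minus strand) holds 1 kB-like, 1 AP-1 and 2 ISRE-like matches. The Ccl3 window (chr11:83649329-83649628, minus strand) holds none of these letters.
Cxcl10: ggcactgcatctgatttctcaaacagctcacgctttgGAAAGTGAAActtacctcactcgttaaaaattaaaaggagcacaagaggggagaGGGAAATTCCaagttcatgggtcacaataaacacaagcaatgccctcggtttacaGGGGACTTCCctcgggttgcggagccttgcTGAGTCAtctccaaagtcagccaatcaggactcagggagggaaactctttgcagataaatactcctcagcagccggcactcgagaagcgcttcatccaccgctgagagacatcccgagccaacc
Ifitm3: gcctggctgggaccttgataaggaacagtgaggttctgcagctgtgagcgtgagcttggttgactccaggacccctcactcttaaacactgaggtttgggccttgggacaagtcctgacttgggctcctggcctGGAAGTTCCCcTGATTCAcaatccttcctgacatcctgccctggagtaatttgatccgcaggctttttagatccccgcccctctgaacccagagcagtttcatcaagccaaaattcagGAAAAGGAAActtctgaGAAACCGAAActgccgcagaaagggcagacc
Ccl3: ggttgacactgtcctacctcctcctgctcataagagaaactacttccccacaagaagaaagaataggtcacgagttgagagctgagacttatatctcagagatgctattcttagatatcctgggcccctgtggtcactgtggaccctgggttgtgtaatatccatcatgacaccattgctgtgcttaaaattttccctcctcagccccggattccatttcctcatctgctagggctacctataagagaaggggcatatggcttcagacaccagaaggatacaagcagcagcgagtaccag
Of 32851 promoter windows of this length, 5.56% hold the kB-like motif, 7.81% the AP-1 motif, 1.79% the CRE motif and 3.44% the ISRE-like motif. Of the 8 chemokine ligands called higher, 5 had a window. Of these, 1 held the kB-like motif, 2 the AP-1 motif and 1 the ISRE-like motif. The kB-like and the ISRE-like matches were in Cxcl10 alone. The window of Cxcl2, a chemokine called lower, also held the kB-like motif. Of the 11 interferon response genes called higher, 8 had a window, and 4 held the ISRE-like motif. A match is a run of letters and not a measured site.

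Cytokine genes were called higher in 5 of 10 measured members and lower in 0, with medians of 1.41 and 0.58. Of those called, Il1b was measured through Ccl4-high cells alone. Il1a, interleukin 1 alpha, ranged from 0 to 2967 TPM, with a median of 9.41 TPM, in Ccl4-high cells, and from 0 to 2181 TPM, with a median of 0 TPM, in Ccl4-negative cells. It was at 100 TPM or more in 12 Ccl4-high and 1 Ccl4-negative cells, and most cells of both groups were low. Il1b, interleukin 1 beta, reached 100 TPM in 4 Ccl4-high cells and was at 0 in every Ccl4-negative cell. Tnf, tumour necrosis factor, averaged 16.4 TPM in Ccl4-high cells and 7.02 TPM in Ccl4-negative cells, and 1 cell held 59.3% of the total of the high group. Csf1, which sustains macrophages, and Pdgfb, a growth factor, each reached 100 TPM in 3 Ccl4-high cells.

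NF-kB pathway genes were called higher in 11 of 35 measured members and lower in 3, with medians of 0.64 and 0.50. Of those called, Tnfaip2, Ikbke, Traf2 and Bcl2a1d were measured through Ccl4-high cells alone and Ikbkg through Ccl4-negative cells alone. The transcription factor subunits Rel and Rela averaged 36.4 TPM in Ccl4-high cells and 8.30 TPM in Ccl4-negative cells, and 98.3 TPM in Ccl4-high cells and 42.5 TPM in Ccl4-negative cells. Chuk, a kinase of the inhibitor complex, averaged 61.98 TPM in Ccl4-high cells and 12.7 TPM in Ccl4-negative cells, and Ikbke, a related kinase, 25.3 TPM in Ccl4-high cells and 0.145 TPM in Ccl4-negative cells. These genes were at low values in most cells, and Rela reached 100 TPM in 6 Ccl4-high and 4 Ccl4-negative cells.

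Other members called higher included Icam1, an adhesion molecule, and Tnfaip2, induced by tumour necrosis factor. Icam1 averaged 82.2 TPM in Ccl4-high cells and 6.29 TPM in Ccl4-negative cells, and Tnfaip2 84.1 TPM in Ccl4-high cells and 1.82 TPM in Ccl4-negative cells. Icam1 reached 100 TPM in 1 of the 8 Ccl4-high cells with 5 or more interferon response genes at 100 TPM, described below. It did so in 3 of the other 29, with a highest value of 1331 TPM. Bcl2a1b, an anti-apoptotic gene of a family of near-identical copies whose single values are uncertain, reached 100 TPM in 15 Ccl4-high and 5 Ccl4-negative cells. Traf2, Birc3 and Ripk2, which act in receptor signalling, and Bcl2a1d complete the 11. Nfkbia, the inhibitor that the pathway itself induces, was not called and reached 100 TPM in 13 Ccl4-high and 15 Ccl4-negative cells. Ikbkg, the regulatory subunit of the kinase complex, Sod2, a mitochondrial superoxide dismutase, and Marcksl1 were called lower.

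Toll-like receptor signalling genes were called higher in 6 of 25 and lower in 2, nearer to the background. Immediate early genes, which many stimuli including tissue dissociation induce, were called higher in 3 of 22 and lower in 4, with medians of -0.02 and 0.36. Btg2, an antiproliferative gene, ranged from 0.710 to 5172 TPM, with a median of 505 TPM, in Ccl4-high cells, and from 0.630 to 3389.6 TPM, with a median of 179.9 TPM, in Ccl4-negative cells, and the groups overlapped widely. Ier5 and Myc were the other 2 called higher. Fosb averaged 42.3 TPM in Ccl4-high cells and 75.3 TPM in Ccl4-negative cells, and Klf4 59.6 TPM in Ccl4-high cells and 115.6 TPM in Ccl4-negative cells; both are transcription factors and were called lower. Genes of MAP kinase phosphatases and feedback were called higher in 3 of 11 and lower in 4. Those called higher were Rgs1, Rgs2 and Dusp3, a phosphatase that averaged 90.8 TPM in Ccl4-high cells and 35.4 TPM in Ccl4-negative cells. Dusp1 and Dusp6, phosphatases that limit MAP kinases, were called lower with Spry2 and Spred1, and Dusp1 was at 100 TPM or more in 23 Ccl4-high and 31 Ccl4-negative cells. Heat shock genes were called higher in 2 of 14 and lower in 0.

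**Figure D4:**
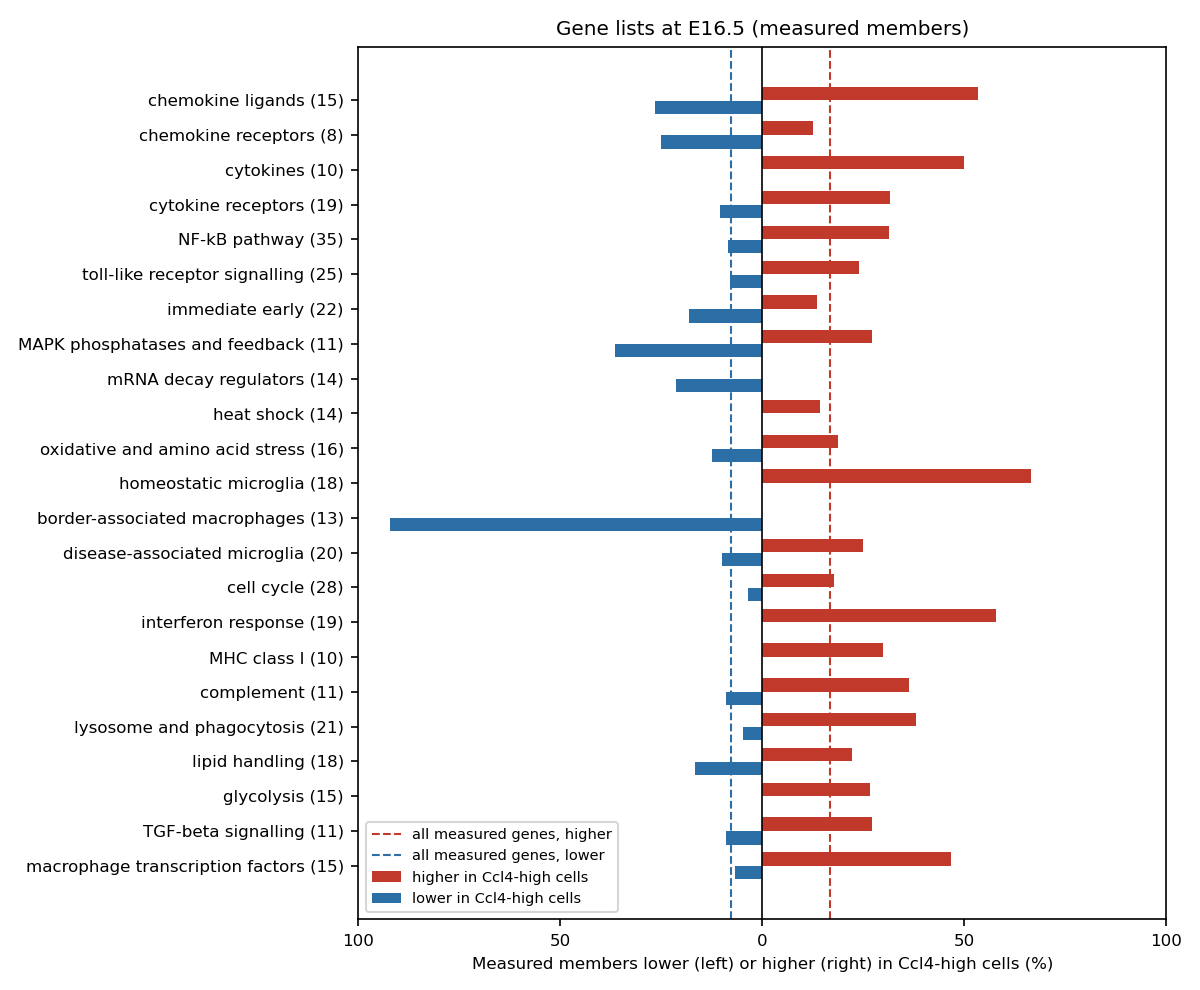
Percent of the measured members of each list with 8 or more (number in brackets) called higher (right, red) or lower (left, blue) in Ccl4-high cells, with dashed lines at 16.7% and 7.74% for all measured genes. Homeostatic microglia, interferon response, chemokine and cytokine lists reach farthest right, and border-associated macrophages farthest left.

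Interferon response genes were called higher in 11 of 19 measured members and lower in 0, with medians of 3.12 and 1.03. At least Irf7 among them was measured through Ccl4-high cells alone and could not be called lower. The gap between the 2 measures goes with few cells of high level. Irf7, a transcription factor of the response, reached 100 TPM in 5 Ccl4-high and 0 Ccl4-negative cells, and Ifit3, an antiviral effector, in 5 Ccl4-high and 0 Ccl4-negative cells. A level of 5 or more of the 21 listed genes at 100 TPM, chosen after the values were seen, was reached by 8 of 37 Ccl4-high cells, 4 of 49 cells between and 0 of 40 Ccl4-negative cells.

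In those 8 cells Ccl4 ranged from 164.22 to 30007 TPM with a median of 838 TPM, and the cell with the most Ccl4 was among them. In the other 29 Ccl4-high cells it ranged from 124.09 to 13729.6 TPM with a median of 1520.5 TPM. All 8 had Ccl12 at 253 TPM or more, Ly6e at 1962 TPM or more and Ifitm3 at 884 TPM or more. F13a1 was at most 2.74 TPM and Mrc1 at most 6.19 TPM in them. Cxcl9 was at 100 TPM or more in 3 of the 8 and in 0 of the other 29. Without the cells of that level, 17.9% of 11455 measured genes were called higher and 8.91% lower. The chemokine list then had 5 of 13 genes called higher and the cytokine list 3 of 10, and the ratio of Tnf (-0.13) was negative. The interferon list had 2 called higher, but the cells left out were chosen on its genes, so nothing is read from that count.

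**Figure D5:**
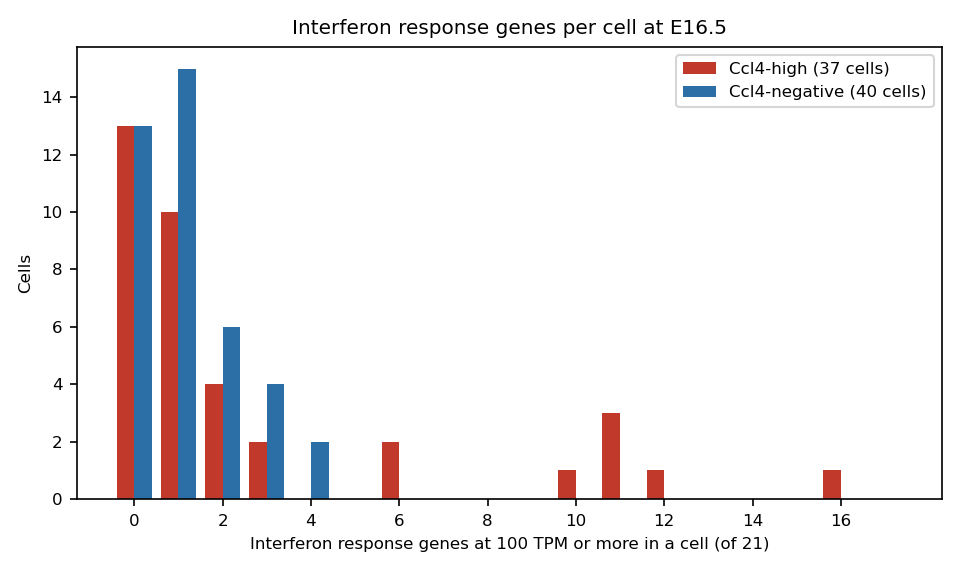
Number of cells (vertical axis) by how many of 21 interferon response genes they hold at 100 TPM or more (horizontal axis), for 37 Ccl4-high cells (left bars, red) and 40 Ccl4-negative cells (right bars, blue). Ccl4-high cells reach 16 genes and Ccl4-negative cells 4.

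Other lists also held more calls higher than lower. Macrophage transcription factors were called higher in 7 of 15 and lower in 1; Irf8, needed for microglia, averaged 235 TPM in Ccl4-high cells and 79.5 TPM in Ccl4-negative cells. Lysosome and phagocytosis genes were called higher in 8 of 21 and lower in 1. Complement genes were called higher in 4 of 11 and lower in 1. Cell cycle genes were called higher in 5 of 28 and lower in 1, close to the background. Without the cells of 5 or more interferon genes at 100 TPM, complement genes were called higher in 0 of 11 and lower in 1. The macrophage transcription factor, lysosome and phagocytosis, and cell cycle lists then had 8, 7 and 5 called higher.

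Markers of other cell types were summed per cell. The neutrophil, mast cell and erythroid lists had 0 measured members. In the B cell list, Ighm and Cd79b were called higher, and the summed level of its 7 genes ranged from 0 to 4289 TPM (median 623 TPM) in Ccl4-high cells and from 0 to 2041 TPM (median 18.4 TPM) in Ccl4-negative cells. The defining genes Cd79a and Pax5 were at 0 in every cell of both groups. In the list of neural progenitors and astrocytes, Nes and Slc1a3 were called higher, and the summed level of its 10 genes ranged from 19.04 to 9464 TPM (median 67.5 TPM) in Ccl4-high cells and from 0 to 4367 TPM (median 60.5 TPM) in Ccl4-negative cells. Sox2, Hes5, Aldh1l1 and Gfap were at 0 in all of them, and the part of the other genes of this list in the results was not tested. Monocyte genes were called lower in 1 of 4 (Itga4) and higher in 0.

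Since F13a1 and Mrc1 differed between the groups, the comparison was repeated in cells with F13a1 below 100 TPM, 33 Ccl4-high and 16 Ccl4-negative. There 29.4% of 10920 measured genes were called higher and 6.87% lower, so the background of genes called higher was larger than over all cells. The medians over all measured genes were 0.65 for the ratio and 0.41 for the difference, and single values in these cells are to be read beside them. Homeostatic microglia genes were called higher in 6 of 18, near the 29.4% of all genes, and border-associated macrophage genes lower in 4 of 10. F13a1, a member of the latter list, was used to choose these cells, so nothing is read from its not being called. NF-kB pathway genes were called higher in 19 of 34, cytokines in 6 of 11, chemokine ligands in 7 of 12 and interferon response genes in 16 of 19.

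In those cells Ccl3 had measures of 0.97 and 4.34, Il1a of 1.24 and 3.31 and Gpr84 of 5.18 and 4.47, and all 3 were called higher. Ccl2, not called over all cells, was called higher at 3.37 and 3.16. Sparc was not called there, at 0.52 and 1.83, whereas Sall1 was, at 1.40 and 2.76. In cells with both F13a1 and Mrc1 below 100 TPM, 37.4% of measured genes were called higher and 14.4% lower. This choice was made after the values were seen and leaves 25 Ccl4-high and 8 Ccl4-negative cells. Homeostatic microglia genes were called higher in 5 of 18 and lower in 2, and NF-kB pathway genes higher in 14 of 33 and lower in 1. Cytokines were called higher in 6 of 11, chemokine ligands in 7 of 12 and interferon response genes in 17 of 19. In these cells Ccl3 and Il1a were not called. The ratios of Sparc (-0.059), Tmem119 (-0.14), Mrc1 (0.83) and Ms4a7 (2.15) turned in direction. Mrc1 was used to choose these cells, so nothing is read from its ratio. Whether the share of macrophage types accounts for the differences over all cells was not tested.

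The 49 cells between the thresholds were set against the same Ccl4-negative cells, which both comparisons share. Of 11265 measured genes, 4.49% were called higher and 10.5% lower in them. Ccl3 had a median of 14.9 TPM in these cells, Sall1 0.320 TPM and F13a1 258 TPM. F13a1 was at 100 TPM or more in 26 of the 49.

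At E12.5 the same rule gave 18.2% of 10606 measured genes higher and 4.32% lower in 21 Ccl4-high cells against 87 Ccl4-negative cells. Ccl3 was called higher there too, with measures of 1.63 and 3.76 and 100 TPM or more in 16 of 21 and 23 of 87 cells. Homeostatic microglia genes were called higher in 10 of 18 and lower in 0, with Sparc at 1.27 and 2.02. Border-associated macrophage genes were called lower in 0 of 11, and F13a1 had measures of -0.30 and -0.53. F13a1 at 100 TPM or more was found in 11 of the 21 Ccl4-high cells. In the E12.5 cells with less F13a1, 10 Ccl4-high and 39 Ccl4-negative, 31.7% of measured genes were called higher and 9.27% lower. Homeostatic microglia genes were called higher there in 14 of 18, above that background, unlike at E16.5. Immediate early genes were called higher in 12 of 19 and NF-kB pathway genes in 12 of 32. Chemokine ligands were called higher in 4 of 12, cytokines in 3 of 9 and interferon response genes in 4 of 15.

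Among genes called higher at E16.5, Sall1 at E12.5 had measures of -1.88 and -0.26, Gpr84 of -2.82 and -0.46 and Il1a of 0.46 and 0.08, none of them called there. Chemokine ligands were called higher in 5 of 12, and Ccl12 (measures of 0.64 and 0.95) and Cxcl10 (measures of 4.13 and 0.85) were called higher at both ages. Immediate early genes were called higher in 7 of 18, interferon response genes in 5 of 16 and cytokines in 1 of 9, beside the 18.2% of all genes. NF-kB pathway genes were called higher in 5 of 33, not above that background, and lower in 4, with medians of -0.14 and 0.42. Rel was called higher at both ages, whereas Rela, called higher at E16.5, was called lower at E12.5. Of 9106 genes measured at both ages, 390 were called higher at both, which is 23.9% of the 1631 of E16.5 and 22.05% of the 1769 of E12.5, where 19.4% of the measured genes were called higher at E12.5. Called lower at both were 48, 5.92% of the 811 of E16.5 and 11.7% of the 410 of E12.5, where 4.50% of the measured genes were called lower at E12.5. Of those 811, 17.9% were called higher at E12.5, against 19.4% of all genes measured at both ages. The difference between the ages was not tested.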

How the data were processed

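Each sample is 1 cell, captured on a Fluidigm C1 chip and made into a Nextera XT library, per the labels' protocols. The authors deposited 1 table of TPM values. Per the submitters' processing notes, RSEM 1.2.19, Seurat and GRCm38 were used. The sources used here do not name the aligner, annotation or filters. Column sums ranged from 997910 to 1000000. Of 1617 columns, 272 (E16.5 and E12.5) were used and 1345 were not. No strand information is given, so overlapping genes on opposite strands cannot be told apart.

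Cells were grouped by age from the labels and then by Ccl4 at 100 TPM or more and below 1 TPM. The members, the gene lists and the rules were chosen with earlier results of these data known. Named genes averaged 20 TPM or more in the higher group, were detected (1 TPM or more) in 25% of that group and were ranked by the smaller of the 2 measures: the 15 highest, the 10 lowest, up to 3 per list in each direction and every called chemokine, cytokine and NF-kB pathway gene; other genes named were chosen after their values were seen. The ISRE-like motif was also added then. Gene positions come from GENCODE M21, where 39379 of 43280 names matched 1 gene. Values were computed with pandas 2.3.3 and numpy 2.4.6 in Python 3.11.15, intervals with scipy 1.17.1 and figures with matplotlib 3.10.9. The comparison was tested on simulated data, where it recovered the size and direction of the set changes. Part of the changed genes were not called. What this test had to meet was revised after its result was seen. Alternatives with fewer than 8 cells in a group were not run. Some genes are not reported here.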

Additional observations from a re-analysis of the deposited data

How the results depend on the processing

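The 6 E16.5 counts of all genes and of lists, and the 2 of E12.5, were recomputed under the alternatives listed here and those that moved them less, judged on counts of genes. With no filter on low values many more genes are measured, so the shares called higher and lower were 8.72% and 3.95% at E16.5 and 8.98% and 2.14% at E12.5, while the counts stayed within 1.5 times. At E16.5 the share of measured genes called higher was 16.7%, but 6.79% with 10 TPM added, 38.2% by the ratio of means alone, 29.4% with F13a1 below 100 TPM and 37.4% with F13a1 and Mrc1 below 100 TPM. The share called lower was 7.74%, but 3.26%, 30.1% and 14.4% under the first 2 and the last of these, 18.54% in cells between the 25th and 75th percentile of genes per cell and 21.1% in cells with a Y-linked gene and no Xist. Chemokine ligands called higher numbered 8, but 5 without the cells of 5 or more interferon genes at 100 TPM. Cytokines numbered 5, but 1 with 10 TPM added and 3 without those cells. NF-kB pathway genes numbered 11, but 4 with 10 TPM added, 18 by the ratio alone and 19 with F13a1 below 100 TPM. Immediate early genes numbered 3, but 5 by the ratio alone, 7 by the difference of mean log2 values alone, 5 between the percentiles, 6 with a Y-linked gene and no Xist and 6 without the cells of many interferon genes.

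At E12.5 the share called higher was 18.2%, but 8.71% with 10 TPM added, 32.6% by the ratio alone, 33.6% by the difference alone, 13.2% without the highest cell of each group per gene, 31.7% with F13a1 below 100 TPM and 39.8% with F13a1 and Mrc1 below 100 TPM. The share called lower was 4.32%, but 8.16% with 0.1 TPM added, 1.02% with 10 TPM added, 30.002% by the ratio alone, 10.8% with Ccl4-high at 500 TPM or more, 16.04% between the percentiles and 10.03% without the highest cells. It was 9.27% with F13a1 below 100 TPM, 12.2% with F13a1 at 100 TPM or more, 9.02% with a Y-linked gene and no Xist and 10.1% with F13a1 and Mrc1 below 100 TPM. The cause of these moves was not tested.

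Of the 89 genes named here that were called, 63 kept the direction of their log2 ratio (or, by the difference alone, of that difference) in every alternative run and 26 did not. The ratio turned for Birc3 (-0.31) with Ccl4-high at 500 TPM or more, and between the percentiles for Birc3 (-0.62), Ccl6 (-0.069), Ddx3y (-2.09), Pdgfb (-2.13) and Spry2 (0.28). With F13a1 below 100 TPM it turned for Blvrb (0.42), Cd200r1 (4.08), Cxcl2 (2.23), Pdgfb (-0.20) and Spred1 (2.27). With a Y-linked gene and no Xist it turned for Cd79b (-1.39) and Ikbkg (1.81). With F13a1 and Mrc1 below 100 TPM it turned for Blvrb (3.77), Ccl24 (0.93), Ccr1 (0.72), Cd200r1 (5.02), Cxcl2 (0.059), Dusp3 (-0.043), Fosb (0.31), Ikbkg (1.71), Itga4 (0.16), Lgals1 (0.97), Lyve1 (0.73), Mrc1 (0.83), Ms4a4a (3.27), Ms4a7 (2.15), Rgs2 (-0.53), Sparc (-0.059), Spred1 (3.42), Spry2 (0.17) and Tmem119 (-0.14). Without the cells of many interferon genes it turned for Ifit3 (-1.23) and Tnf (-0.13).

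The choice by F13a1 and Mrc1 together and that by interferon genes were made after seeing the data. Mrc1 and Ifit3, counted among the 26 genes, were used in these choices. Nothing is read from their turned ratios. Cells with F13a1 at 100 TPM or more (4 Ccl4-high and 24 Ccl4-negative at E16.5) and cells with Xist and no Y-linked gene were too few to run. No paired analysis was possible because the labels give no shared replicate numbers and each group is 1 sample. Reads per cell are unknown, so a value of 0 cannot be told apart from a transcript that was missed.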
